A study of Mus musculus with 20 samples.

Results

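The genes examined encode the constitutive subunits of the proteasome, the multi-subunit protease that degrades ubiquitin-tagged proteins, and they were followed in bone marrow endothelial cells after irradiation. A gene was included when a probe set with a single gene symbol carried a symbol formed of Psma, Psmb, Psmc, Psmd or Psme and a number, and the immunoproteasome genes Psmb8, Psmb9 and Psmb10 were set apart. The rule found 39 genes among 18193 genes measured. They were 8 genes of the core's alpha ring (Psma1 to Psma8), 8 of its beta ring (Psmb1 to Psmb7 and Psmb11), 9 of the base of the regulatory particle (Psmc1 to Psmc6, Psmd1, Psmd2 and Psmd4), 8 of its lid (Psmd3, Psmd6, Psmd7, Psmd8 and Psmd11 to Psmd14), 3 chaperones of base assembly (Psmd5, Psmd9 and Psmd10) and 3 activators (Psme1, Psme3 and Psme4). Psme2 had no probe set of its own symbol alone and was not measured here.

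The study profiled RNA of VE-cadherin+ endothelial cells from the bone marrow of adult C57/Bl6 mice aged 8 to 10 weeks, with 20 Affymetrix arrays in 4 groups of 5. The groups were mice without irradiation and mice taken 6 hours, 24 hours or 14 days after 5 Gy of total body irradiation (TBI), which exposes the whole animal. Arrays are labelled as biological replicates. Whether each came from 1 mouse or from a pool is not stated, and p-values here measure the spread between arrays.

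The core particle is a barrel of stacked rings: the outer alpha rings gate the entry, and the inner beta rings hold the proteolytic sites. The regulatory particle caps it, with a lid that removes ubiquitin chains and a base whose ATPases unfold the substrate and thread it into the core. Cells keep the subunits in balance in part through coordinated transcription: when proteasome activity falls, the transcription factor Nfe2l1 is released from degradation and activates subunit genes through antioxidant response elements in their promoters.

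The promoters of 4 members are shown. Psmb5 and Psmb6 encode catalytic subunits. Psmd9 had the lowest log2 change of the members at 6 hours, and Psmc6 had the lowest of the base. All 4 hold the core of the antioxidant response element, and most members with a promoter window do not. Among those without it are Psma1 and Psma5, with log2 changes of -1.06 at 6 hours and 1.03 on day 14. The sequences are RefSeq's, in build GRCm38.p6, from 250 bases before to 50 bases after the annotated start, written 5′ to 3′ on the gene's strand. Capitals mark TGACNNNGC, the core of the antioxidant response element, CCAAT, or the ETS site CCGGAAG, each searched on both strands. The windows lie at chr14:54617946-54618245 on the minus strand for Psmb5, chr11:70525107-70525406 on the plus strand for Psmb6, chr5:123227940-123228239 on the plus strand for Psmd9 and chr14:45329574-45329873 on the plus strand for Psmc6.
Psmb5: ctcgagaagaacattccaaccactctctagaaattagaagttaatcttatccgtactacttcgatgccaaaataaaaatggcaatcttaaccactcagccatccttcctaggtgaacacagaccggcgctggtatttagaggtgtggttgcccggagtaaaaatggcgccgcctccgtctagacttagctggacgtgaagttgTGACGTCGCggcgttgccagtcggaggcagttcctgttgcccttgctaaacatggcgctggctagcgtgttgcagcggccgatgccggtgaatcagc
Psmb6: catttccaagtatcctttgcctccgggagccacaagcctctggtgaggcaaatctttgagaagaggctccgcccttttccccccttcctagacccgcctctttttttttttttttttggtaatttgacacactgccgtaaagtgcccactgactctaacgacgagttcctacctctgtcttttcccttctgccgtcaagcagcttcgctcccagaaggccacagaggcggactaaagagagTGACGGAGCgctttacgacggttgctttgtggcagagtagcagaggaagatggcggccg
Psmd9: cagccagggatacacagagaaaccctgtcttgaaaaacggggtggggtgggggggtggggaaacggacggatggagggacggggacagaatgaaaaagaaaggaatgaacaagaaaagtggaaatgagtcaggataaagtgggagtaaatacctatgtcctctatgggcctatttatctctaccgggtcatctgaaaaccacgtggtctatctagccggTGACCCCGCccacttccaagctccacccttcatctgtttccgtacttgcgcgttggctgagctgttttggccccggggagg
Psmc6: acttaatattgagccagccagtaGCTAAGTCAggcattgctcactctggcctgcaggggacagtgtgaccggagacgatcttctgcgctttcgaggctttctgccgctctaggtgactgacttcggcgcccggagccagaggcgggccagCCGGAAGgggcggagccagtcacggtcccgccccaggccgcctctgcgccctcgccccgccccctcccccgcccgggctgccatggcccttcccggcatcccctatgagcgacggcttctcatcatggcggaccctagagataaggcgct

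The antioxidant response element core stood 47 bases before the start in Psmb5, 9 bases before it in Psmb6, 31 bases before it in Psmd9 and 227 bases before it, on the opposite strand, in Psmc6. Of the 32 members with a promoter window, 6 (18.8%) held it, namely these 4, Psmd12 and Psme4, against 14% of 27025 mouse genes with such a window. CCAAT was found in 13 of the 32 (40.6%), against 41.1% of all genes. The ETS site was found in 12 of the 32 (37.5%), against 9.93% of all genes. These included Psmc6, Psmd4, Psmd6 and Psmd11, which are described below. A match is a description of the letters in the window and says nothing of binding.

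Values are linear array signals, which can be compared between arrays for 1 probe set but not between probe sets. Each gene was read from its brightest probe set, tests used log2(signal + 1), and a change is the irradiated minus the non-irradiated mean on that scale unless other groups are named. A gene was called at an adjusted p under 0.05 from limma's moderated test, adjusted over all 18193 genes. Of the 39 members, 37 lay above the level of the negative control probes (17.5 to 51.5 signal units) in all 20 arrays. The exceptions were Psma8, which is known from the testis, and Psmb11, which is known from the thymus cortex.

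The cell label was checked with fixed marker lists. Cdh5, which encodes VE-cadherin, had a mean signal of 3186 ± 494 in non-irradiated mice, 8954 ± 1263 at 6 hours, 4891 ± 188 at 24 hours and 1293 ± 270.1 on day 14 (SD, n = 5 each). All 16 pan-endothelial markers were above background in at least 1 array of every group, but so were all 12 pan-leukocyte and 10 granulocyte markers. Of 11 erythroid markers, the exceptions were Rhag at 24 hours and Hba-a1 on day 14. The summed erythroid signal lay between 51648 and 55794 in non-irradiated mice, 6336 and 10604 at 6 hours, 2508 and 3236 at 24 hours, and 64086 and 77792 on day 14. The summed endothelial signal lay between 18260 and 19996, 53073 and 57802, 27851 and 29955.0, and 9678 and 11031 in the same order. The RNA is therefore bulk RNA with markers of other blood cells, in which fewer cells of a type and less RNA per cell cannot be told apart. Arrays of the 6-hour group also resembled each other least, with a mean over arrays of the median correlation to the group of 0.895, against 0.939 to 0.959 in the other groups. The cell cycle inhibitor Cdkn1a, a known target of the DNA damage response, had mean signals of 904 ± 189, 7620.0 ± 978, 4255 ± 169 and 803 ± 158 in the 4 groups in order of time (SD, n = 5 each). Mki67, a gene of cycling cells, averaged 18052 ± 367, 8867 ± 844, 5186 ± 466 and 14009 ± 1377 in the same order of groups (SD, n = 5 each).

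At 6 hours after irradiation, 17 of the 39 members were called lower and 2 were called higher, where 14.6% and 12.9% of all genes were called lower and higher. At 24 hours 8 were lower and 4 higher (13.9% and 15.7% of all genes). On day 14, 32 were higher, against 9.44% of all genes. No member was called lower on day 14, nor did any have a lower mean at an unadjusted p under 0.05 in limma, while 13% of all genes were called lower. The members' median log2 change was -0.32 at 6 hours, -0.04 at 24 hours and 0.60 on day 14. Over all genes the median was -0.02, -0.07 and -0.18, so the members' median stood -0.30, 0.03 and 0.78 from that of all genes. The 7077 genes with a mean signal of 500 or more, a cut chosen after seeing the data, include 37 of the members. Of these genes 23.5% were called higher and 24.9% lower at 6 hours, and 29% and 23.2% at 24 hours. On day 14 it was 22.1% and 12.1%. Their median changes were -0.05, 0.05 and 0.14. Of those 37 members 3 were higher and 8 lower at 24 hours, which is under both shares.

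**Figure D1:**
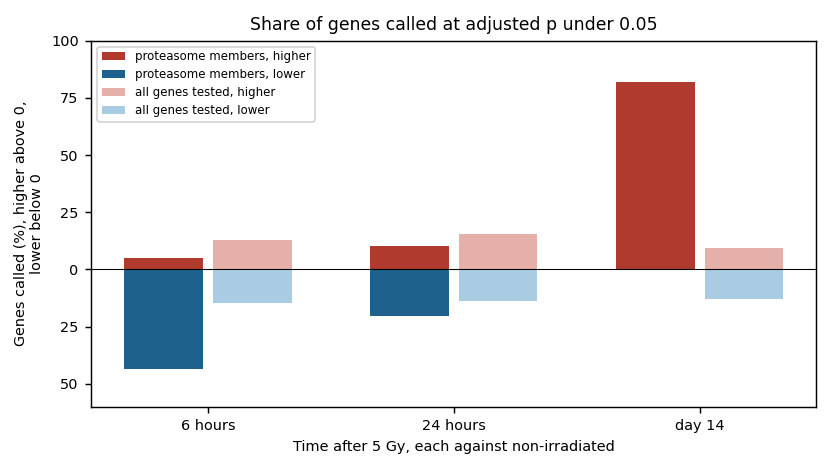
Percent of genes called higher (above 0) or lower (below 0) at 6 hours, 24 hours and day 14 against non-irradiated mice, for the 39 proteasome members and for all 18193 genes tested. On day 14, 32 of 39 members were called higher, where 9.44% of all genes were.

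The same direction was seen when arrays were compared without a model. All 5 day 14 arrays lay above all 5 non-irradiated arrays for 30 members, where 11.4% of all genes did so. At 6 hours, 9 members lay below all non-irradiated arrays and 2 above them (8.08% and 7.6% of all genes). At 24 hours, 9 lay below and 5 above (13% and 15.1%). The members also varied less between arrays on day 14 than at 6 hours: the median SD of the members' log2 signal was 0.17 in non-irradiated mice, 0.29 at 6 hours, 0.12 at 24 hours and 0.11 on day 14. For all genes it was 0.40, 0.66, 0.34 and 0.33, which follows the same order of groups.

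Measures of cells and of RNA also differed between the groups, and whether they bear on the members' changes was not tested. The summed erythroid signal was lowest at 24 hours, and the summed endothelial signal was highest at 6 hours. On day 14, when the members were higher, 2 of 11 erythroid markers were called higher and 12 of 16 endothelial markers lower. At 6 hours 10 of 11 erythroid markers were lower and 15 of 16 endothelial markers higher, and at 24 hours 10 of 11 were lower and 8 of 16 higher. Of 10 granulocyte markers 8 were lower and none higher at 6 hours, with a median log2 change of -0.48, 4 were lower and 3 higher at 24 hours, and 4 were lower and 2 higher on day 14. Of 12 pan-leukocyte markers 5 were lower and 2 higher at 6 hours, 2 lower at 24 hours, and 5 lower and 1 higher on day 14, when their summed signal lay between 40451 and 43134, against 49642 and 57039 in non-irradiated mice. Between groups lay 98.9% of the variance of the erythroid mean, so erythroid level and time after irradiation can hardly be told apart in these arrays. The log2 difference between the 3′ and 5′ control probe sets of Gapdh, a measure of RNA integrity, averaged 1.33 in non-irradiated mice. It averaged 1.58 at 6 hours, 0.77 at 24 hours and 0.89 on day 14. The same difference for actin averaged -0.10, -0.09, -0.02 and -0.05 in that order of groups. Of the variance of the Gapdh difference 83.8% lay between groups. With the Gapdh difference as a covariate 25 members were called higher on day 14 and 18 lower at 6 hours. At 24 hours 3 were then lower and 1 higher. The erythroid mean as a covariate gave 26 members higher on day 14 and no call at 6 or at 24 hours. With it the SE of a change was larger, for Psmb5 at 24 hours 1.18 against 0.16 in the reported fit. With the mean of the pan-leukocyte markers, of whose variance 84.9% lay between groups, 9 were higher on day 14, 6 lower at 6 hours, and 8 lower and 4 higher at 24 hours. The share of all genes called with each covariate is not given here, so these counts cannot be read as particular to the members.

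**Figure D2:**
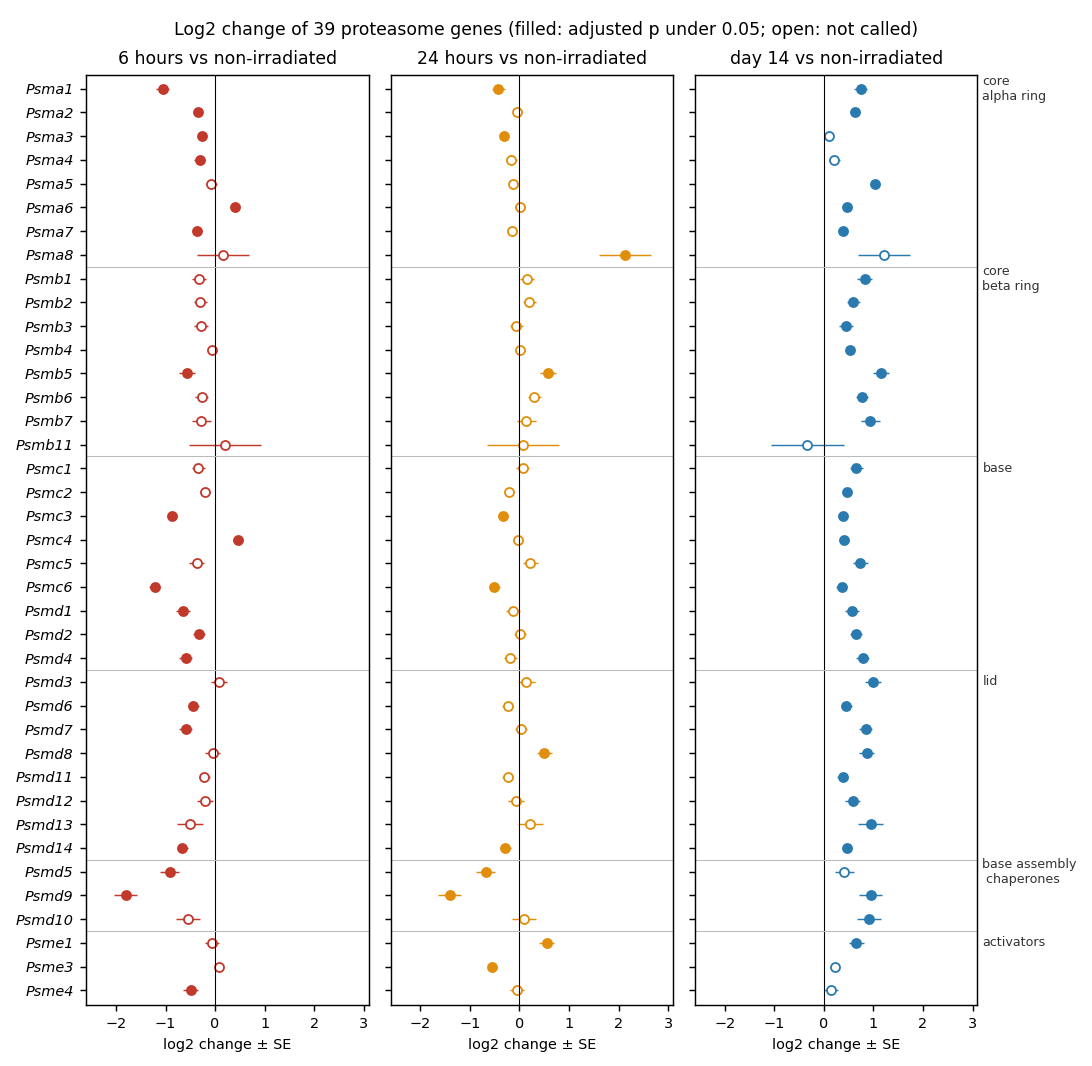
Log2 change ± SE of each of the 39 proteasome members against non-irradiated mice at 6 hours, 24 hours and day 14 (5 arrays a group), ordered by subunit group; filled points were called at an adjusted p under 0.05. At 6 hours 17 filled points lie left of 0, and on day 14 all 32 filled points lie right of it.

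In the alpha ring, whose subunits form the outer rings and the gate, 5 of 8 genes fell and 1 rose at 6 hours, 2 fell and 1 rose at 24 hours, and 5 rose on day 14. For this and each later subset, 14.6% of all genes fell and 12.9% rose at 6 hours. At 24 hours it was 13.9% and 15.7%, and on day 14 13% and 9.44%. Psma1 had the largest called drop of the ring at 6 and at 24 hours. Its signal was 1939, 2363, 1922, 1635 and 2147 in non-irradiated mice, 1234, 683, 1015, 849 and 1077 at 6 hours, 1419, 1577, 1515, 1459.6 and 1435 at 24 hours and 3308, 3281, 3321, 3513 and 3204 on day 14. All 6-hour and 24-hour arrays lay below the non-irradiated arrays, and all day 14 arrays lay above them. The log2 change was -1.06 ± 0.13 (adjusted p = 8.36e-07) at 6 hours, -0.42 ± 0.13 (adjusted p = 0.0177) at 24 hours and 0.74 ± 0.13 (adjusted p = 0.000271) on day 14 (± SE here and below). The 24-hour call was lost without non-irradiated array 2, at -0.36 (adjusted p = 0.0603). Psma5 had the largest called rise of the ring on day 14, to 5739, 5808, 5722, 5281 and 6302, against 2447, 2886, 3008, 2821 and 3027 in non-irradiated mice. These groups did not overlap, and the change was 1.03 ± 0.10 (adjusted p = 8.75e-08). At 6 and 24 hours the Psma5 arrays overlapped the non-irradiated ones, with signals of 2156 to 3210.5 and 2359 to 3058.

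Psma6 was the alpha ring gene that rose at 6 hours, to 7015, 6933, 5411, 6399 and 5408, against 3746, 4946, 4916, 4945 and 4899.7 in non-irradiated mice. The change was 0.41 ± 0.10 (adjusted p = 0.00191), with no overlap, but a second bright probe set of Psma6 gave -0.22 at that time. On day 14 the first probe set was called higher, at 0.47 ± 0.10 (adjusted p = 0.000979), and the second gave 0.54. Psma7 had the smallest called rise of the ring on day 14, to 6285 to 6545 units, against 4311 to 5364 in non-irradiated mice, a change of 0.38 ± 0.10 (adjusted p = 0.00724). Psma2 fell by 0.35 at 6 hours (adjusted p = 0.00304) and rose by 0.64 on day 14 (adjusted p = 1e-05). Psma3 and Psma4 were called lower at 6 hours, with signals of 4322 to 5238 and 1662 to 2025, against 5237 to 6191 and 2061 to 2509 in non-irradiated mice. Neither was called on day 14. Psma8 was called higher at 24 hours at a low level, at 277, 187, 183, 174 and 288, against 9.94, 42.0, 99.8, 40.2 and 153 in non-irradiated mice, with a log2 change of 2.13 ± 0.53 (adjusted p = 0.00284). The day 14 arrays of Psma8 read 82.9 to 167 and overlapped the non-irradiated arrays.

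In the beta ring, the 3 catalytic genes Psmb5, Psmb6 and Psmb7 rose on day 14, and 7 of the 8 genes of the ring did so. At 6 hours 1 of the 8 fell and 7 were not called, and at 24 hours 1 rose and 7 were not called. Psmb5 encodes the subunit with chymotrypsin-like activity, the site that the drug bortezomib inhibits. Its signal was 1071, 701, 1357, 1507 and 1131 in non-irradiated mice, 646, 723, 898, 649 and 871 at 6 hours, 1624, 1596, 1903, 1722 and 1534 at 24 hours and 2666, 2731, 2212, 2599 and 2215 on day 14. The 6-hour arrays overlapped the non-irradiated ones, while all 24-hour and all day 14 arrays lay above them. Psmb5 was called at every time, at -0.57 ± 0.16 (adjusted p = 0.00933) at 6 hours, 0.58 ± 0.16 (adjusted p = 0.00807) at 24 hours and 1.15 ± 0.16 (adjusted p = 1.64e-05) on day 14.

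**Figure D3:**
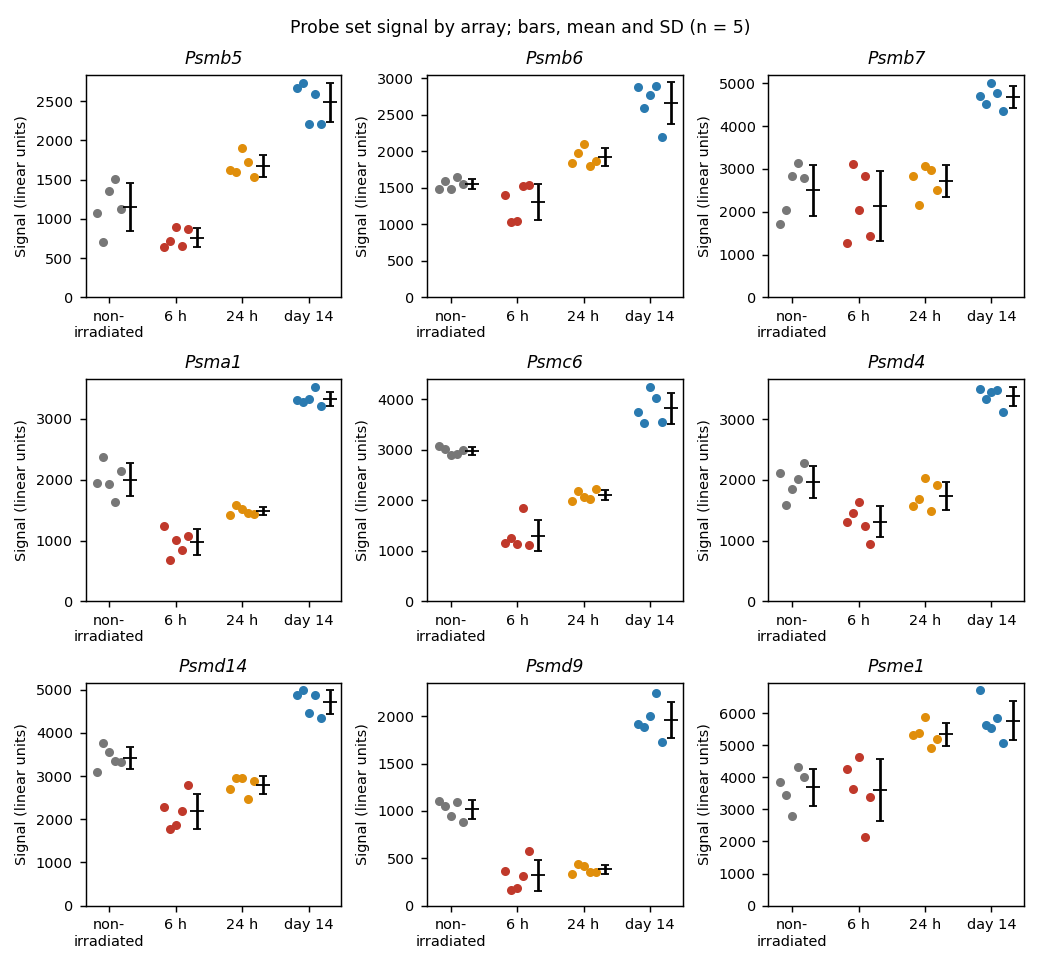
Signal of 9 proteasome genes in each of the 20 arrays (points) with the group mean and SD (bars, n = 5), for non-irradiated mice, 6 hours, 24 hours and day 14. For Psma1, Psmc6, Psmd14 and Psmd9 all 6-hour and 24-hour arrays lie below the non-irradiated arrays and all day 14 arrays above them, while Psmb5 is above them from 24 hours.

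Psmb6, which encodes the subunit with caspase-like activity, read 1489, 1588, 1489, 1646 and 1556 in non-irradiated mice, 1403, 1029, 1048, 1519 and 1536 at 6 hours, 1833, 1981, 2098, 1796 and 1872 at 24 hours and 2874, 2592, 2771, 2896 and 2193 on day 14. Its 24-hour and day 14 arrays lay above all non-irradiated arrays. The changes were -0.27 ± 0.13 (adjusted p = 0.117), 0.30 ± 0.13 (adjusted p = 0.0736) and 0.77 ± 0.13 (adjusted p = 7.82e-05) in order of time, of which the last was called. Psmb7, which encodes the subunit with trypsin-like activity, read 1719, 2042, 2843, 3129 and 2781 in non-irradiated mice, 1267, 3108, 2049, 2837 and 1443 at 6 hours, 2839, 2163, 3071, 2977 and 2505 at 24 hours and 4716, 4522, 5021, 4782 and 4352 on day 14. Its 6-hour and 24-hour arrays overlapped the non-irradiated ones, and its day 14 arrays lay above all of them. The changes were -0.28 ± 0.20 (adjusted p = 0.333), 0.14 ± 0.20 (adjusted p = 0.652) and 0.94 ± 0.20 (adjusted p = 0.00121).

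Psmb1, Psmb2, Psmb3 and Psmb4 form the rest of the ring and have no active site. On day 14 Psmb1 averaged 3002 ± 230.0, against 1699 ± 138 in non-irradiated mice. Psmb2 averaged 4887 ± 499, against 3246 ± 481, and Psmb4 8539 ± 458, against 5960.4 ± 371. Psmb3 had the smallest called rise of the ring, with 5596, 5422, 6234, 5508 and 5073 on day 14, against 5050.3, 3748, 3443, 4528 and 3792 in non-irradiated mice, a change of 0.45 ± 0.14 (adjusted p = 0.0196). Without non-irradiated array 2 or 3 or day 14 array 3 that change was 0.42, 0.39 or 0.41 and was not called. For each of these 4 genes no day 14 array overlapped a non-irradiated one, and at 6 and 24 hours none of the 4 was called. At 6 hours a second bright probe set gave -0.84 for Psmb3 and -0.76 for Psmb4, against -0.29 and -0.06 for the probe sets used. Psmb11, the catalytic subunit of the thymus form, lay at or under background in 12 of 20 arrays and was not called at any time.

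In the base, which holds the ATPases and a ubiquitin receptor, 5 of 9 genes fell and 1 rose at 6 hours, 2 fell at 24 hours, and all 9 rose on day 14. Psmc6, an ATPase subunit, had the largest drop. It read 3063, 3022, 2886, 2907 and 3001 in non-irradiated mice, 1155, 1249.9, 1138, 1844 and 1122 at 6 hours, 1992, 2188, 2069, 2021 and 2227 at 24 hours and 3748, 3533, 4239, 4025 and 3554 on day 14. No irradiated array overlapped a non-irradiated one at any of the 3 times. The changes were -1.22 ± 0.12 (adjusted p = 8.48e-09), -0.50 ± 0.12 (adjusted p = 0.00143) and 0.36 ± 0.12 (adjusted p = 0.029), so the gene with the largest drop in the base had the smallest rise there on day 14. A second bright probe set of Psmc6 gave -0.95 at 6 hours, -0.05 at 24 hours and 0.56 on day 14. The day 14 call was lost without any 1 of non-irradiated arrays 3 and 4 and day 14 arrays 3 and 4, with 0.32 to 0.35 left.

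Psmc3, the ATPase subunit that pairs with Psmc6 in the ring, read 3235, 3103, 3098, 2989 and 3285 in non-irradiated mice, 1603, 1504, 1914, 1800.1 and 1783 at 6 hours, 2493, 2535, 2598, 2308 and 2589 at 24 hours and 4381, 4123, 3950.4, 4812 and 3474 on day 14. It was below the non-irradiated arrays at 6 and 24 hours and above them on day 14, without overlap. The changes were -0.87 ± 0.10 (adjusted p = 1.15e-07), -0.33 ± 0.10 (adjusted p = 0.0115) and 0.39 ± 0.10 (adjusted p = 0.00489). Psmc4 was the ATPase gene that rose at 6 hours, to 5495, 5795, 5804, 5229 and 4531, against 4009, 4116, 3774, 3212 and 4368 in non-irradiated mice, a change of 0.47 ± 0.10 (adjusted p = 0.000467). A second bright probe set of Psmc4 gave -0.16 at 6 hours. On day 14 the first probe set of Psmc4 was called higher, at 0.41 ± 0.10 (adjusted p = 0.00294), and the second gave 0.49.

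Psmd4, a receptor that binds ubiquitin chains, had the largest rise of the base on day 14. Its signal was 2114, 1585, 1854, 2019 and 2283 in non-irradiated mice, 1304, 1449, 1639, 1238 and 947 at 6 hours, 1566, 1691, 2025, 1485 and 1910.4 at 24 hours and 3497, 3332, 3454, 3479.9 and 3111 on day 14. The 6-hour and 24-hour arrays overlapped the non-irradiated ones and the day 14 arrays did not. The changes were -0.60 ± 0.13 (adjusted p = 0.00132), -0.18 ± 0.13 (adjusted p = 0.345) and 0.79 ± 0.13 (adjusted p = 0.000153). Psmd1 and Psmd2, the large scaffold subunits of the base, fell at 6 hours to means of 1752 ± 507 and 1664 ± 349, against 2696 ± 409 and 2057 ± 114 in non-irradiated mice. On day 14 they averaged 3956 ± 245 and 3229 ± 203 and were called higher. Of the remaining ATPases, Psmc1 averaged 5439 ± 473 on day 14, against 3526 ± 894 in non-irradiated mice. Psmc2 averaged 6108 ± 462, against 4441 ± 349, and Psmc5 2913 ± 159, against 1752 ± 117. All 3 were called higher then and at neither earlier time.

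In the lid, 3 of 8 genes fell at 6 hours, 1 fell and 1 rose at 24 hours, and all 8 rose on day 14. Psmd14 encodes the lid's deubiquitinase, which cuts ubiquitin chains from the substrate. It read 3086, 3766, 3545, 3355 and 3326 in non-irradiated mice, 2293, 1767, 1873, 2194 and 2796 at 6 hours, 2707, 2953, 2958, 2478 and 2895 at 24 hours and 4872, 4979.6, 4466, 4885 and 4347 on day 14. The arrays of all 3 times lay apart from the non-irradiated ones, below them at 6 and 24 hours and above them on day 14. The changes were -0.66 ± 0.11 (adjusted p = 3.01e-05), -0.29 ± 0.11 (adjusted p = 0.0453) and 0.46 ± 0.11 (adjusted p = 0.0029). The 24-hour call was lost when any 1 of the 10 arrays but non-irradiated array 1 was left out, with a change of -0.31 to -0.24, and in the fit with the replicate number as a block (adjusted p = 0.0671).

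Psmd6 and Psmd7 were the other lid genes that fell at 6 hours. Psmd6 read 1981, 2061, 2141, 2221 and 1808 then, against 2510.2, 2291, 3633, 2671 and 2907 in non-irradiated mice, a change of -0.44 ± 0.12 (adjusted p = 0.00457). Psmd7 averaged 999 ± 139 at 6 hours and 2702 ± 179 on day 14, against 1513 ± 224 in non-irradiated mice, and did not overlap at either time. Psmd8 was the lid gene that rose at 24 hours, to 2610.4, 2616, 2904, 2610.3 and 2776, against 1690.0, 2111, 1862, 2641 and 1460.3 in non-irradiated mice, where 1 non-irradiated array overlapped. Its changes were 0.50 ± 0.15 (adjusted p = 0.0135) at 24 hours and 0.86 on day 14. Without non-irradiated array 5 the 24-hour change was 0.40 (adjusted p = 0.0535). Psmd3 had the largest rise of the lid on day 14, to 1679, 1605, 1859, 1805 and 1666, against 857, 649, 1018, 871 and 969 in non-irradiated mice, a change of 0.99 ± 0.17 (adjusted p = 0.000124). Psmd11 had the smallest, with 5003, 3989, 5028, 4615 and 4262 on day 14, against 3487, 3374, 3461, 3188 and 4062 in non-irradiated mice, a change of 0.38 ± 0.11 (adjusted p = 0.013) with overlap. Psmd12 and Psmd13 averaged 2399 ± 239.7 and 1287 ± 76.2 on day 14, against 1603 ± 153 and 669.8 ± 76.8 in non-irradiated mice, and both were called higher. The 6-hour arrays of Psmd13 spread from 176 to 815.

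The base assembly chaperones bind ATPase subunits before the regulatory particle is complete and are not part of the finished particle. Of these 3 genes, 2 fell at 6 hours, 2 fell at 24 hours and 2 rose on day 14. Psmd9 is the chaperone that binds the module of Psmc3 and Psmc6. It read 1105, 1050.0, 944, 1098 and 882 in non-irradiated mice, 363, 165, 184, 314 and 577 at 6 hours, 339, 438, 416, 357 and 359.6 at 24 hours and 1919.8, 1889.6, 2004, 2247 and 1728 on day 14. The groups did not overlap the non-irradiated arrays at any time, and the day 14 arrays lay above all others. Its changes were the lowest of the 39 members at 6 and 24 hours, at -1.81 ± 0.24 (adjusted p = 1.41e-06) and -1.41 ± 0.24 (adjusted p = 3.86e-05), and on day 14 it was at 0.95 ± 0.24 (adjusted p = 0.00532). A dimmer probe set of Psmd9, with a mean signal of 421, gave -1.86, -2.12 and -1.78 at the 3 times, and another, with a mean signal of 62.0, gave -0.54, -0.75 and 0.64.

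Psmd5, a chaperone of another ATPase module, read 2208, 1761, 1859.5, 1796 and 1873 in non-irradiated mice, 1252, 1208, 565, 842 and 1401 at 6 hours, 914, 1221, 1456, 1031 and 1355 at 24 hours and 2779.8, 2251, 2909, 2276 and 2471 on day 14. It was below the non-irradiated arrays at the early times and above them on day 14. The changes were -0.92 ± 0.19 (adjusted p = 0.000451), -0.68 ± 0.19 (adjusted p = 0.00643) and 0.41 (adjusted p = 0.114), so the day 14 value was not called. Psmd10, also known as gankyrin, read 933, 1069.7, 671, 722 and 739 on day 14, against 492, 394, 374, 399 and 517 in non-irradiated mice, without overlap. That change was 0.91 ± 0.25 (adjusted p = 0.00924). Its 6-hour and 24-hour arrays, at 220.0 to 519 and 281 to 615, overlapped the non-irradiated ones and were not called.

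The activators are caps that open the core without the regulatory particle. Of these 3 genes 1 fell at 6 hours, 1 rose and 1 fell at 24 hours, and 1 rose on day 14. Psme1, a subunit of the interferon-inducible cap, read 3845, 3448, 2798, 4327 and 3993 in non-irradiated mice, 4266, 3619, 4638, 2130.3 and 3385 at 6 hours, 5311, 5386, 5878, 4912 and 5181 at 24 hours and 6708, 5615, 5543, 5856 and 5060.1 on day 14. The 6-hour arrays overlapped the non-irradiated ones, and the later arrays lay above them. The changes were -0.06 ± 0.15 (adjusted p = 0.813), 0.55 ± 0.15 (adjusted p = 0.00588) and 0.65 ± 0.15 (adjusted p = 0.00249). Psme3, which forms the nuclear cap, read 5110.0, 4968, 6383, 4929.6 and 5143, 5135, 5189, 6941, 5231 and 5582, 3453, 3551, 3510.1, 3616 and 3931 and 6480.3, 5922, 6068, 6467 and 5930.1 in the same order of groups. It was below the non-irradiated arrays at 24 hours and overlapped them at 6 hours and on day 14, with changes of 0.08 ± 0.09 (adjusted p = 0.581), -0.55 ± 0.09 (adjusted p = 2.4e-05) and 0.22 ± 0.09 (adjusted p = 0.0717). A second bright probe set of Psme3 gave -0.67, -0.44 and 0.52. With both averaged Psme3 was called at each time, at -0.30 (adjusted p = 0.00351), -0.49 (adjusted p = 1.61e-05) and 0.37 (adjusted p = 0.000793).

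Psme4, a cap known from chromatin and the response to DNA breaks, read 2075, 1370.3, 1509, 1104 and 1538 in non-irradiated mice, 929.5, 828, 1189, 1241 and 1164 at 6 hours, 1417, 1454, 1504, 1253 and 1567 at 24 hours and 1694, 1718, 1599, 1569 and 1629 on day 14. All 3 irradiated groups overlapped the non-irradiated arrays. The changes were -0.49 ± 0.15 (adjusted p = 0.0132), -0.05 ± 0.15 (adjusted p = 0.839) and 0.14 ± 0.15 (adjusted p = 0.523), of which the first was called. Without the first non-irradiated array, at 2075, the 6-hour change was -0.37 (adjusted p = 0.0585) and the 24-hour change was 0.07. For Psme3, leaving out non-irradiated array 3, at 6383, brought the day 14 change to 0.29 (adjusted p = 0.0215).

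The 3 immunoproteasome genes encode the inducible counterparts of the catalytic subunits, and interferon-gamma is known to raise them. All 3 rose at 24 hours and on day 14, and none was called at 6 hours, when 0 of 3 also passed an unadjusted p under 0.05 in limma. Psmb8, the counterpart of Psmb5, read 986, 1065, 1067, 669 and 1006 in non-irradiated mice, 1345, 1039, 1104, 1558 and 859 at 6 hours, 2098, 2349, 2422, 1989 and 2249 at 24 hours and 1247, 1409.9, 1404, 1631 and 1430.1 on day 14. The changes were 0.29 ± 0.16 (adjusted p = 0.182), 1.23 ± 0.16 (adjusted p = 6.56e-07) and 0.59 ± 0.16 (adjusted p = 0.0081). Psmb9, the counterpart of Psmb6, read 1686, 2239.8, 1825, 1587 and 1417, 2050.0, 3105, 1197, 2203 and 2571, 3365, 3019, 3381, 3169 and 2790.2 and 3812, 3163, 3251, 3318 and 3352 in that order of groups, with changes of 0.30 ± 0.17 (adjusted p = 0.219), 0.86 ± 0.17 (adjusted p = 0.000275) and 0.96 ± 0.17 (adjusted p = 0.000202). Psmb10, the counterpart of Psmb7, read 1581, 1119, 1258, 1057 and 950.2, 1759, 2161, 2072, 1149.9 and 789, 2257, 2626, 2598, 2577 and 2883 and 2151, 1839, 1941, 2056 and 1786, with changes of 0.34 ± 0.20 (adjusted p = 0.238), 1.13 ± 0.20 (adjusted p = 6.95e-05) and 0.73 ± 0.20 (adjusted p = 0.01). For all 3 genes the 24-hour and day 14 arrays lay above every non-irradiated array. The 6-hour values depended on single arrays: without 6-hour array 5 Psmb8 was at 0.40 (adjusted p = 0.0498) and Psmb10 at 0.56 (adjusted p = 0.00969), and without 6-hour array 3 Psmb9 was at 0.50 (adjusted p = 0.00429).

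Whether an inducible subunit changed more than a constitutive one was tested on the log2 ratio of the pair within each array, in 12 tests adjusted together. Psme1 was set against Psme3, which forms another cap and is not its counterpart. With 5 arrays against 5 the two-sided exact permutation test can give no p under 0.00794. At 24 hours Psmb9 over Psmb6 was higher by 0.56 ± 0.13 (adjusted p = 0.0476, exact permutation test), and Psme1 over Psme3 by 1.10 ± 0.18 (adjusted p = 0.0476, exact permutation test). In both pairs all 5 of the 24-hour ratios lay above the non-irradiated ones. Of the second pair, Psme1 itself changed by 0.55 and Psme3 by -0.55 at 24 hours. Both 24-hour calls were lost when any 1 of the 24-hour arrays was left out (adjusted p = 0.0636, exact permutation test). The changes were then 0.52 to 0.59 and 1.05 to 1.14. The test moves in coarse steps and the 12 tests are adjusted together, so this loss does not measure how stable the changes are. Psmb8 over Psmb5 differed by 0.86 ± 0.37 at 6 hours, 0.65 ± 0.29 at 24 hours and -0.56 ± 0.30 on day 14, and none of the 3 passed (adjusted p = 0.0816, 0.0816 and 0.154, exact permutation test). Psmb10 over Psmb7 gave 0.61 ± 0.41, 1.00 ± 0.29 and -0.21 ± 0.27 (adjusted p = 0.233, 0.0816 and 0.556, exact permutation test). Psmb9 over Psmb6 gave 0.57 ± 0.26 at 6 hours and 0.19 ± 0.14 on day 14 (adjusted p = 0.0816 and 0.247, exact permutation test). Psme1 over Psme3 gave -0.14 ± 0.24 and 0.43 ± 0.18 at those times (adjusted p = 0.556 and 0.0636, exact permutation test). Other pairs passed when single arrays were left out. Without non-irradiated array 2 Psmb8 over Psmb5 was 1.07 at 6 hours and 0.86 at 24 hours, and Psmb9 over Psmb6 was 0.65 at 6 hours (0.70 without 6-hour array 3). Without non-irradiated array 1 Psmb10 over Psmb7 was 1.23 at 24 hours, and without array 4 Psmb8 over Psmb5 was -0.79 on day 14. Without array 1, 2 or 4 Psme1 over Psme3 was 0.46, 0.43 or 0.52 on day 14. All of these then passed, with adjusted p of 0.0238 to 0.0477 in the exact permutation test. The coarse steps of this test and the joint adjustment also move such values. Psme1 over Psme3 passed on day 14 without array 2 at 0.43 ± 0.23, against 0.43 ± 0.18 with all arrays.

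**Figure D4:**
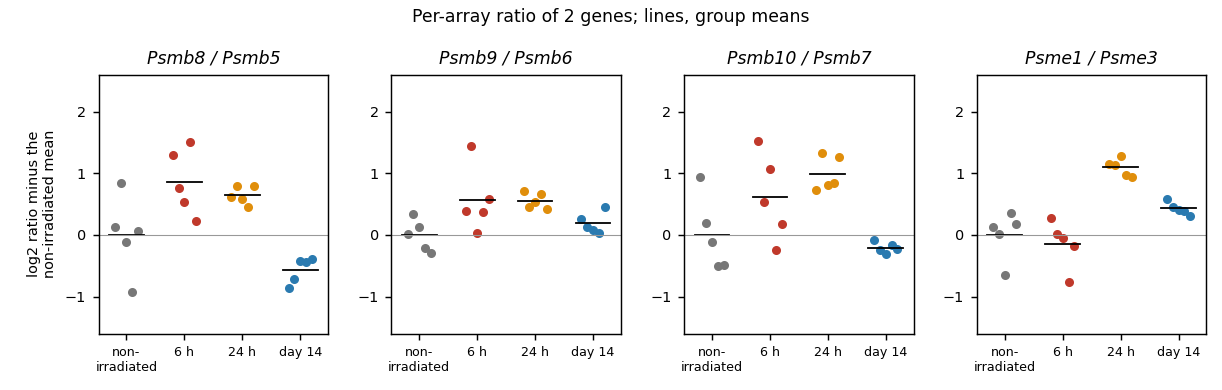
Log2 ratio of an inducible to a constitutive gene in each of 20 arrays (points, with a line at the group mean), less the non-irradiated mean. The pairs are Psmb8 over Psmb5, Psmb9 over Psmb6, Psmb10 over Psmb7 and Psme1 over Psme3, which is not the counterpart of Psme1. At 24 hours the mean stands at 0.65, 0.56, 1.00 and 1.10, and on day 14 at -0.56, 0.19, -0.21 and 0.43.

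Of 33 other genes of the pathway (assembly chaperones of the core, proteins bound to the proteasome, ubiquitin and shuttle genes, and the Nfe2l1 axis), 24 were measured. Of these 3 rose and 6 fell at 6 hours (12.9% and 14.6% of all genes). At 24 hours 4 rose and 7 fell (15.7% and 13.9%), and on day 14 9 rose and 1 fell (9.44% and 13%). Psmf1, an inhibitor of the core, had the largest called change among them at each time. It read 932, 808, 1005, 1001 and 959 in non-irradiated mice, 454, 339, 603, 280.1 and 345 at 6 hours, 331, 450.1, 436, 479 and 451 at 24 hours and 1949, 1886, 2160.0, 2008 and 2053 on day 14, always apart from the non-irradiated arrays. The changes were -1.26 ± 0.18 (adjusted p = 4.12e-06), -1.14 ± 0.18 (adjusted p = 1.52e-05) and 1.10 ± 0.18 (adjusted p = 7.74e-05).

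The chaperones of core assembly included Psmg2, which fell to means of 449 ± 256 at 6 hours and 533 ± 111 at 24 hours, against 884 ± 173 in non-irradiated mice. Psmg3 fell to 335 ± 162 at 6 hours and rose to 1087 ± 91.2 on day 14, against 547 ± 144. Psmg1 rose to 1363 ± 136 on day 14, against 821 ± 101. Pomp, a chaperone of the last step of core assembly, averaged 4327 ± 334 on day 14, against 3102 ± 422, a change of 0.49 ± 0.14 (adjusted p = 0.0131). Without non-irradiated array 2 it was 0.40 (adjusted p = 0.0517). Psmg2 at 24 hours was not called without non-irradiated array 1 or 5 or 24-hour array 1 or 2 (-0.71 to -0.63), nor Psmg3 at 6 hours without non-irradiated array 1 or 6-hour array 2 or 4 (-0.72 to -0.54). Nfe2l1, the factor that activates proteasome genes, rose at 6 and 24 hours and was not called on day 14. It read 619.7, 843, 636, 686 and 611 in non-irradiated mice, 1155, 658, 1043, 1086 and 1393 at 6 hours, 1190.5, 1132, 1488, 980.4 and 1219 at 24 hours and 361, 598, 785, 688 and 701 on day 14. Its arrays overlapped the non-irradiated ones at 6 hours and on day 14, and its changes were 0.62 ± 0.21 (adjusted p = 0.0245), 0.82 ± 0.21 (adjusted p = 0.00306) and -0.15 ± 0.21 (adjusted p = 0.626). Nfe2l2, its relative in the oxidative stress response, averaged 3012 ± 527 at 6 hours, against 2381 ± 172 in non-irradiated mice, a change of 0.32 ± 0.11 (adjusted p = 0.0359). The 6-hour call of Nfe2l1 was lost without non-irradiated array 1, 3 or 5 or 6-hour array 5 (0.51 to 0.60). That of Nfe2l2 was lost without non-irradiated array 1, 2, 4 or 5 or 6-hour array 1, 2 or 5 (0.27 to 0.33).

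The times after irradiation were also compared with each other. At 24 hours against 6 hours, 20 members were called higher and 3 lower (13.7% and 10.1% of all genes), and the members' median change was 0.40. Psmb5 had the largest change among the well-measured members, at 1.15 ± 0.16 (adjusted p = 8.22e-06), and its 24-hour arrays lay above all 6-hour arrays. That was so for 11 members, and 3 lay below (8.02% and 6.57% of all genes). The 3 that were lower were Psma6, Psmc4 and Psme3, with -0.40 ± 0.10 (adjusted p = 0.00329), -0.50 ± 0.10 (adjusted p = 0.000338) and -0.63 ± 0.09 (adjusted p = 7.97e-06). On day 14 against 24 hours, 34 were called higher and none lower, nor was any lower at an unadjusted p under 0.05 in limma (15.2% and 21.7% of all genes were higher and lower). The members' median change was 0.65, while that of all genes was -0.27. Psmd9 had the largest change, at 2.36 ± 0.24 (adjusted p = 1.19e-08). For 36 members all day 14 arrays lay above all 24-hour arrays, where 15.7% of all genes did so. Psma8 lay below, where 20.7% of all genes did so. Psmd8, Psme1 and Psme4 were higher in mean but not called. With the Gapdh, pan-leukocyte and erythroid covariates 5, 1 and 3 members were higher at 24 hours than at 6 hours, and 33, 23 and 0 were higher on day 14 than at 24 hours. The share of all genes called in those fits is not given. The inducible Psmb8 was lower on day 14 than at 24 hours, at -0.64 ± 0.16 (adjusted p = 0.00167).

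How the arrays are put on 1 scale bears on the counts at day 14. With arrays centred on their medians, 38 members were higher on day 14, where 3654 of 18193 genes were, against 1718 in the reported fit. Of the called genes 72.8% were then higher rather than 42%. With quantile normalization 23 members and 1773 of all genes were higher, which was 60.7% of the called genes. No member was called lower on day 14 in either, where 1364 and 1150 of all genes were. On day 14 against 24 hours centring gave 36 members and 3971 of all genes higher, against 2760 genes in the reported fit. Of the called genes 61.4% were higher in place of 41.2%. At 24 hours against 6 hours centring gave 12 members higher and 3 lower, where 1975 and 2277 of all genes were. Of the called genes 46.4% were higher in place of 57.6%.

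The array holds further probe sets for many members, and these depended on brightness. Of 18 other probe sets with a mean signal of 500 or more, from 14 members, all 18 had a positive log2 change on day 14, between 0.14 and 1.00, and 16 had a negative one at 6 hours. Of 27 dimmer ones, from 16 members, 23 had a negative change on day 14, the lowest at -2.40. With the bright probe sets of a gene averaged, 26 members were called lower and none higher at 6 hours, and 32 were higher on day 14. With all probe sets averaged, 19 members were called higher and 3 lower on day 14. Dim probe sets of Psma1, with mean signals of 217, 58.5 and 45.2, gave -1.84, -2.05 and -2.39 on day 14, against 0.74 for the probe set used. No sequence of the probes was used here, so which transcripts the dim probe sets read was not tested.

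**Figure D5:**
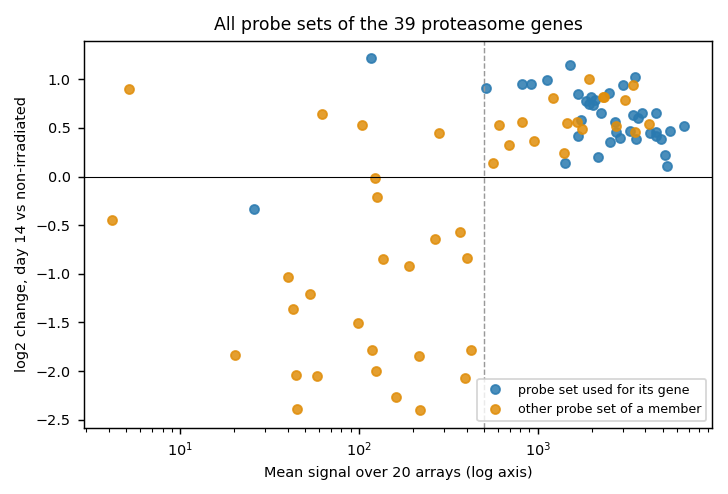
Log2 change on day 14 against non-irradiated mice of every probe set of the 39 proteasome members, by its mean signal over 20 arrays (log axis). The dashed line stands at 500, a cut chosen after seeing the data. Points right of the line lie above 0, among them all 18 unused probe sets there, while 23 of the 27 unused ones left of it lie below 0.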

How the data were processed

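RNA of VE-cadherin+ bone marrow cells was hybridised to 20 single-colour Affymetrix arrays, 5 in each of 4 groups. The deposited values are linear intensities of 45101 probe sets. Per the submitters' processing notes the authors used Affymetrix Expression Console and Transcriptome Analysis Console. The summarization algorithm is not given in the sources used here. Read from the values, each array's mean after trimming 2% at each end is 500.

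Of the probe sets, 34945 had 1 gene symbol in the platform annotation, 932 had several and 9160 were unnamed here; 64 controls were left out. Each of 18193 genes was read from the probe set with the highest mean signal over the 20 arrays, as log2(signal + 1). One limma fit (version 3.58.1, R 4.3.3) with an intensity trend over all 4 groups gave 5 comparisons, with Benjamini-Hochberg adjustment over all genes and a threshold of 0.05. The fit was tested on simulated data. Background is the 95th percentile of 27 bacterial control probe sets on each array. Pairs of genes were compared by exact permutation of the arrays, in 12 tests; a planned pair with Psme2 had no probe set. No pair of arrays held near-identical values (smallest median absolute log2 difference 0.29).

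The members, gene lists and tests were chosen with earlier results of these data known. Named genes were the catalytic subunits, Psmd4, Psmd14, the activators, the immunoproteasome genes, the highest and lowest called member of each subset and time, the 3 largest called changes among other pathway genes at each time, and Nfe2l1, Nfe2l2, Pomp, Cdkn1a, Mki67 and Cdh5. Values beyond these describe the rest of the members. Figures were drawn with matplotlib 3.10.9 in Python 3.11.15. The number of arrays limits the precision.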

Additional observations from a re-analysis of the deposited data

Results flagged for a closer look

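Of 168 sets of 5 arrays examined for a single distant value, 9 held one, where chance gives about 1 in 20. At 6 hours array 5 had 2862 for Psma2 against 2377 to 2453 in the other arrays, array 4 had 1844 for Psmc6 against 1122 to 1249.9 and 2276 for Psmd2 against 1421 to 1591, and array 3 had 6941 for Psme3 against 5135 to 5582. At 24 hours array 5 had 4972 for Psma7 against 4177 to 4352. Among the non-irradiated arrays, array 1 had 3746 for Psma6 against 4899.7 to 4946 and 2208 for Psmd5 against 1761 to 1873. There array 3 also had 6383 for Psme3 against 4930 to 5143, and array 4 had 669 for Psmb8 against 986 to 1067.

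For 6 members the changes against non-irradiated mice were called in opposite directions at neighbouring times (6 and 24 hours, or 24 hours and day 14). The difference between the times was read from the same limma fit. Because the members were picked by these opposite calls, a small p of the difference followed from the choice and adds no support. Psmb5 was higher at 24 hours than at 6 hours by 1.15 on the log2 scale (adjusted p = 8.22e-06). On day 14 against 24 hours the difference was 1.17 for Psma1 (adjusted p = 1.11e-07), 0.72 for Psmc3 (adjusted p = 1.33e-06), 0.86 for Psmc6 (adjusted p = 1.36e-06), 0.75 for Psmd14 (adjusted p = 3.14e-06) and 2.36 for Psmd9 (adjusted p = 1.19e-08). In all 6 cases the arrays of the later time lay above all arrays of the earlier one, which also followed in large part from the choice. Of all genes 8.02% did so at 24 hours against 6 hours and 15.7% on day 14 against 24 hours.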

How the results depend on the processing

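All alternatives but the mean of a gene's bright probe sets (mean signal of 500 or more) were planned; that one was chosen after seeing the data. Of 396 recomputed counts and pair changes, under 13 alternatives and without each array in turn, 343 kept their direction and their side of the threshold, as did 1756 of 1990 recomputed changes of single genes. The cause was not tested where a result moved, save where a setting itself uses fewer arrays or probe sets. Counts of members are given as called, with the count of the reported fit after "against". The share of all genes is not set beside these counts, so a move cannot be read as particular to the members. At 6 hours members called higher were 0 with all probe sets averaged, 1 without probe sets whose names end in _x_at or _s_at, 0 with the pan-leukocyte covariate, 0 with the erythroid covariate and 0 with the mean of bright probe sets, against 2. Those called lower at 6 hours were 10 when only the 2 groups compared were fitted, 6 with the pan-leukocyte covariate, 0 with the erythroid covariate and 26 with the mean of bright probe sets, against 17. At 24 hours those higher were 1 with the Gapdh covariate and 0 with the erythroid covariate, against 4, and those lower were 5 at an adjusted p under 0.01, 3 with the Gapdh covariate and 0 with the erythroid covariate, against 8. On day 14 those higher were 19 with all probe sets averaged and 9 with the pan-leukocyte covariate, against 32, and those lower were 3 with all probe sets averaged, against 0. At 24 hours against 6 hours those higher were 12 with centred arrays, 11 with only those groups, 11 at an adjusted p under 0.01, 5 with the Gapdh, 1 with the pan-leukocyte and 3 with the erythroid covariate, against 20. Those lower there were 0 with the Gapdh, 1 with the pan-leukocyte and 1 with the erythroid covariate and 0 with the mean of bright probe sets, against 3. On day 14 against 24 hours those higher were 0 with the erythroid covariate, against 34, and those lower were 1 with all probe sets averaged and 1 with only those groups, against 0. The erythroid covariate turned the sign of Psmb5 (-0.39), Psmc6 (1.16), Psmd4 (0.26), Psmd5 (0.38), Psmd8 (-0.70), Psme1 (-1.01) and Nfe2l1 (-1.06) at 24 hours, and of Psmb6 (0.33), Psmb7 (0.84), Psme3 (-0.57) and Nfe2l1 (-0.70) at 6 hours. None of these was called with it. The pan-leukocyte covariate turned Psmb7 (0.73) and Psmb9 (-0.076) at 6 hours, and the Gapdh covariate turned Psmd4 (0.24) and Psme4 (0.15) at 24 hours and Psme3 (-0.034) at 6 hours. Quantile normalization turned Psme3 at 6 hours (-0.015) and Psme4 on day 14 (-0.011), and centring turned Psme1 at 6 hours (0.016). Averaging all probe sets, which includes the dim ones, turned Psma1 (-1.39), Psma5 (-0.074), Psma6 (-0.15), Psmd9 (-0.065), Psmd11 (-0.079), Psme3 (-0.21) and Psme4 (-1.004) on day 14 and Psma6 at 6 hours (-0.092). Psma6 also turned at 6 hours without _x_at and _s_at probe sets (-0.22), and Psme3 at 6 hours with the mean of bright probe sets, where it was called (-0.30, adjusted p = 0.00351). Leaving out 1 array turned Psme1 at 6 hours (-0.17 to 0.12) and Psme4 at 24 hours (-0.16 to 0.068). It gave 15 to 20 members lower and 2 higher at 6 hours, 6 to 8 lower and 3 to 4 higher at 24 hours, 30 to 33 higher and 0 lower on day 14, 16 to 22 higher and 3 lower at 24 hours against 6 hours, and 33 to 34 higher and 0 lower on day 14 against 24 hours. The pair changes without 1 array ranged, at 6 hours, 24 hours and day 14, from 0.63 to 1.07, 0.42 to 0.86 and -0.79 to -0.35 for Psmb8 over Psmb5, and from 0.35 to 0.70, 0.48 to 0.64 and 0.12 to 0.28 for Psmb9 over Psmb6. They ranged from 0.39 to 0.85, 0.87 to 1.23 and -0.33 to 0.028 for Psmb10 over Psmb7, and from -0.30 to 0.013, 0.93 to 1.18 and 0.27 to 0.52 for Psme1 over Psme3. The 24-hour calls of Psmb9 over Psmb6 and of Psme1 over Psme3 were lost when any 1 of the 24-hour arrays was left out. The adjusted p in the exact permutation test was then 0.0636. With all probe sets averaged Psmb8 over Psmb5 passed at 6 hours (1.66) and Psme1 over Psme3 on day 14 (0.86). The numbers of the arrays do not pair them: in 25 comparisons of same-numbered arrays the correlation of deviations lay between -0.06 and 0.04, and 6 arrays correlated best with their own number. A replicate block gave 16 members lower at 6 hours, 7 lower at 24 hours and 32 higher on day 14, and ended the 24-hour call of Psmd14 alone among the genes named.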
